A study of Mus musculus with 12 samples.

Results

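The genes described here are 9 genes of B cell receptor signaling, namely Cd79a, Cd79b, Cd81, Lyn, Syk, Blnk, Btk, Plcg2 and Pik3ap1. They were taken from the count table by symbol, as a set put together with earlier results of these data known, and are 9 of the 22561 genes in the count table. All 9 had enough counts to be tested, among 9431 genes in all. RNA was measured in sorted splenic follicular (FO) B cells of 10-week-old C57BL6 mice, in 12 samples that fall into 4 groups of 3. One group was unstimulated. The others were stimulated for 12 h with interferon-alpha (IFNα), with CpG, a DNA agonist of Toll-like receptor 9, or with CpG + IFNα. The sort used CD23, intermediate CD21 and high B220 among other markers, so that the gate itself used the products of Fcer2a, Cr2 and Ptprc. The measurements were made to look for pathways through which IFNα acts on CpG-stimulated FO B cells.

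The B cell receptor is a membrane immunoglobulin bound to a heterodimer of CD79A and CD79B, whose cytoplasmic tails carry the tyrosine motifs that signal. Antigen binding lets the Src family kinase LYN phosphorylate these tails, SYK docks on them, and SYK phosphorylates the adaptor BLNK, on which BTK activates the phospholipase PLCG2 to open the calcium and protein kinase C branches. PIK3AP1, also called BCAP, brings in phosphatidylinositol 3-kinase, and CD81 belongs to the coreceptor that lowers the threshold for signaling. Mature FO B cells depend on this receptor for survival, and plasma cells that make IgG lose most of it.

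Values are unique molecular identifier (UMI) counts scaled to normalized CPM. The scale of a sample is its total over the tested genes times a normalization factor, which ran from 0.9352 to 1.039. Total counts ran from 922450 to 2923865 per sample, and the groups differed in depth, from 922450 to 1103064 in unstimulated samples and from 1884673 to 2923865 with CpG + IFNα. Mitochondrial genes held 6.06 to 7.70% of counts in unstimulated samples, 5.91 to 8.52% with IFNα, 3.29 to 4.85% with CpG and 2.99 to 3.52% with CpG + IFNα. All 5 B cell markers, among them Ms4a1, Cd74, Pax5 and Ebf1, were detected in every group, and all 5 were lower with CpG than in unstimulated cells. Their summed level ran from 17820 to 19810 CPM in unstimulated samples, 12660 to 15800 with IFNα, 1771 to 1920 with CpG and 1604 to 1667 with CpG + IFNα. The 5 follicular markers, among them Fcer2a, Ighd, Cd55 and Klf2, summed to 6752 to 7624 CPM in unstimulated samples, 4799 to 5679 with IFNα, 943 to 1140 with CpG and 894 to 1022 with both stimuli. Marginal zone B cell markers summed to 572 to 687, 176 to 211, 71.8 to 94.9 and 37.1 to 57.6 CPM in these 4 groups in the same order, and plasma cell markers to 559 to 612, 611 to 698, 684 to 711 and 444 to 522 CPM, with 1 of the 4 tested plasma cell markers higher and 1 lower when IFNα was added to CpG. The 7 of 9 T cell markers in the table summed to 30.9 to 42.8, 42.6 to 51.9, 4.28 to 9.98 and 5.46 to 7.25 CPM, most of it Lck in unstimulated and IFNα samples, with Cd3g and Cd8a at 0 in all samples. Myeloid markers summed to 13.7 to 38.5, 8.07 to 17.6, 4.91 to 7.49 and 5.17 to 7.20 CPM, erythroid markers to 57.4 to 345, 15.3 to 336, 4.99 to 60.8 and 5.65 to 72.0 CPM, and NK cell markers to at most 4.55 CPM in any sample. The part of these markers, of depth and of the mitochondrial share in the differences below was not tested. In bulk samples, fewer cells of a type and less RNA per cell cannot be told apart, and a CPM is a share of the counted RNA and not an amount per cell. How long the unstimulated cells were kept, and whether in culture, is not given in the sources used here, so that stimulation and time in culture cannot be told apart in a comparison with them.

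With CpG, 7 of the 9 genes were lower than in unstimulated FO B cells and 0 were higher, where 38.4% of all genes tested were lower and 36.5% higher. The genes that did not pass were Blnk and Pik3ap1. The median difference of the 9 genes was -1.38 on the log2 scale, beside -0.03 over all genes tested. A gene passed at an adjusted p under 0.1 in edgeR's quasi-likelihood test, with Benjamini-Hochberg adjustment over all genes tested. These p-values measure only the spread between these samples, since the labels do not say whether the 3 samples of a group came from separate mice.

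With CpG + IFNα, the same 7 genes were lower than in unstimulated cells and 0 were higher, beside 38.8% lower and 37.6% higher of all genes, and the median was -1.67, beside -0.01 over all genes. CpG + IFNα and CpG alone were each set against the same unstimulated samples, so these results share their controls. With IFNα alone, Btk and Pik3ap1 rose and Syk fell. The 2 genes that rose stand beside 12.4% of all genes higher, and the 1 gene that fell is near the background of 11.9% lower. Lyn and Blnk also passed as higher when IFNα replicate 2 was left out. The median of the 9 genes was 0.19, beside 0.00 over all genes.

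The addition of IFNα to CpG lowered 4 of the 9 genes, Cd79a, Cd79b, Syk and Btk, where 8.83% of all genes were lower, and raised 2, Cd81 and Pik3ap1, where 6.54% were higher. The count of higher genes was 0 at the smallest depth and without CpG replicate 1, CpG replicate 3 or CpG + IFNα replicate 2. The median was -0.23, beside -0.04 over all genes. In the comparison of CpG + IFNα with IFNα, all 9 genes were lower, beside 39.8% of all genes lower and 36.1% higher, and the median was -1.50, beside -0.07 over all genes.

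**Figure D1:**
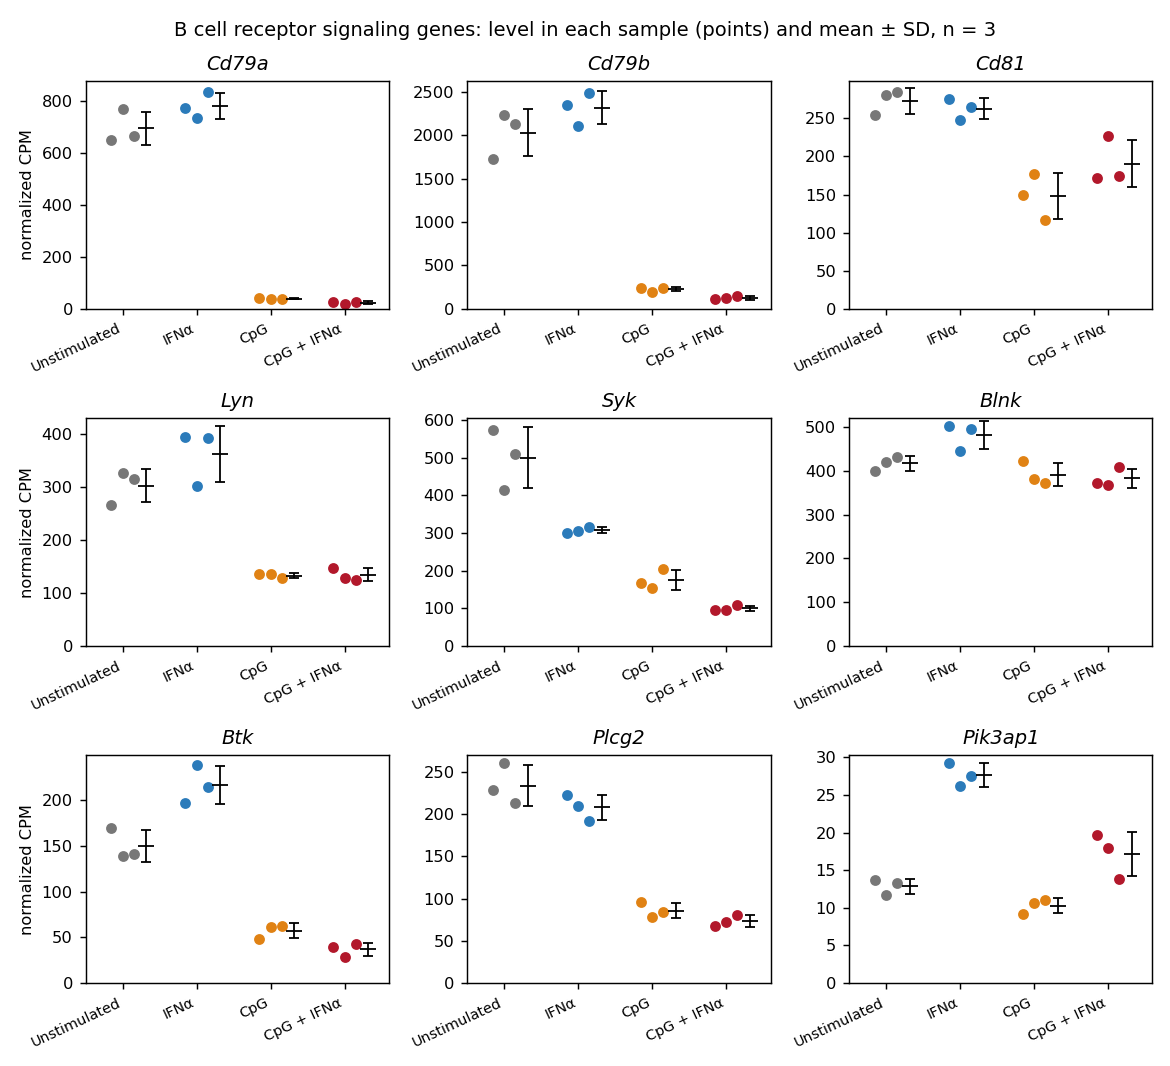
Normalized CPM (vertical axis, from 0) of each of the 9 genes in the 4 groups. Each point is a sample and the black mark with bars beside it is the mean ± SD of 3 samples; Cd79a and Cd79b drop nearly to the axis in both CpG groups, while Blnk stays between 369 and 504 CPM in all 12 samples.

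CD79A and CD79B are the signaling subunits of the receptor. Cd79a lies at chr7:24897381-24902197 on the plus strand and Cd79b at chr11:106311341-106314762 on the minus strand (GRCm38, GENCODE M21). The promoter of Cd79a is shown because Cd79a had the largest difference among the 9 genes. The window runs from 250 bases before to 50 bases after the RefSeq start (chr7:24897247-24897546, plus strand, GRCm38.p6), and the capitals mark a match to the core bound by the B cell and myeloid factor PU.1, GAGGAA, read on the other strand at bases -140 to -135 from the start.
Cd79a: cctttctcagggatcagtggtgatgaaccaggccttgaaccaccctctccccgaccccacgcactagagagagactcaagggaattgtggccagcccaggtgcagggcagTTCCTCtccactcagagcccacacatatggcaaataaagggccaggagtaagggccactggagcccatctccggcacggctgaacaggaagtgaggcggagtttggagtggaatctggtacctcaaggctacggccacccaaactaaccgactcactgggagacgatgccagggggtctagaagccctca

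Cd79a stood at 651, 769 and 664 CPM in the 3 unstimulated samples and at 774, 736 and 836 CPM with IFNα. In the CpG samples its level was 41.8, 38.5 and 38.9 CPM, and with CpG + IFNα it was 25.1, 17.6 and 27.8 CPM. All samples with CpG lay far below all without it, and the 3 with CpG + IFNα lay below the 3 with CpG alone. The mean was 695 ± 64.8 CPM (SD, n = 3) in unstimulated cells and 39.7 ± 1.77 with CpG, a 17.4-fold fall (log2 fold change -4.12, SE 0.14, edgeR adjusted p = 4.49e-22). IFNα on top of CpG lowered it further by 0.79 on the log2 scale (SE 0.18, edgeR adjusted p = 0.00203), and against unstimulated cells the fall with both stimuli was 30.2-fold. IFNα alone gave a log2 fold change of 0.17, SE 0.11, which did not pass (edgeR adjusted p = 0.313).

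Cd79b was the most abundant of the 9 genes in unstimulated cells, at 1720, 2236 and 2130 CPM, and stood at 2352, 2108 and 2482 CPM with IFNα. With CpG it was at 237, 197 and 241 CPM and with CpG + IFNα at 112, 121 and 152 CPM. As for Cd79a, the 4 groups fell into 3 levels, with unstimulated and IFNα samples overlapping, CpG below them and CpG + IFNα lowest. The fall was 9.00-fold with CpG (log2 fold change -3.17, SE 0.13, edgeR adjusted p = 7.51e-20) and 15.8-fold with both stimuli. CpG + IFNα differed from CpG by -0.81, SE 0.14 on the log2 scale (edgeR adjusted p = 3.49e-05). By rank of mean level among the 9431 genes tested, Cd79b went from place 50 in unstimulated cells to place 756 with CpG and 1517 with CpG + IFNα, and Cd79a from 176 to 4060 and 5392.

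Both chains are needed in equal number in the receptor, and the ratio of their transcripts is described here without a test. There were 2.92 ± 0.28 (SD, n = 3) Cd79b counts per Cd79a count in unstimulated samples and 2.96 ± 0.09 with IFNα. The ratio was 5.65 ± 0.53 with CpG and 5.60 ± 1.21 with CpG + IFNα. It ran from 2.64 to 3.21 over the unstimulated samples and from 4.46 to 6.86 over those with CpG + IFNα, so that no sample with CpG overlapped one without. Since a UMI is counted once per transcript from its 3′ end, this ratio does not scale with transcript length, although the capture of each transcript can differ.

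**Figure D2:**
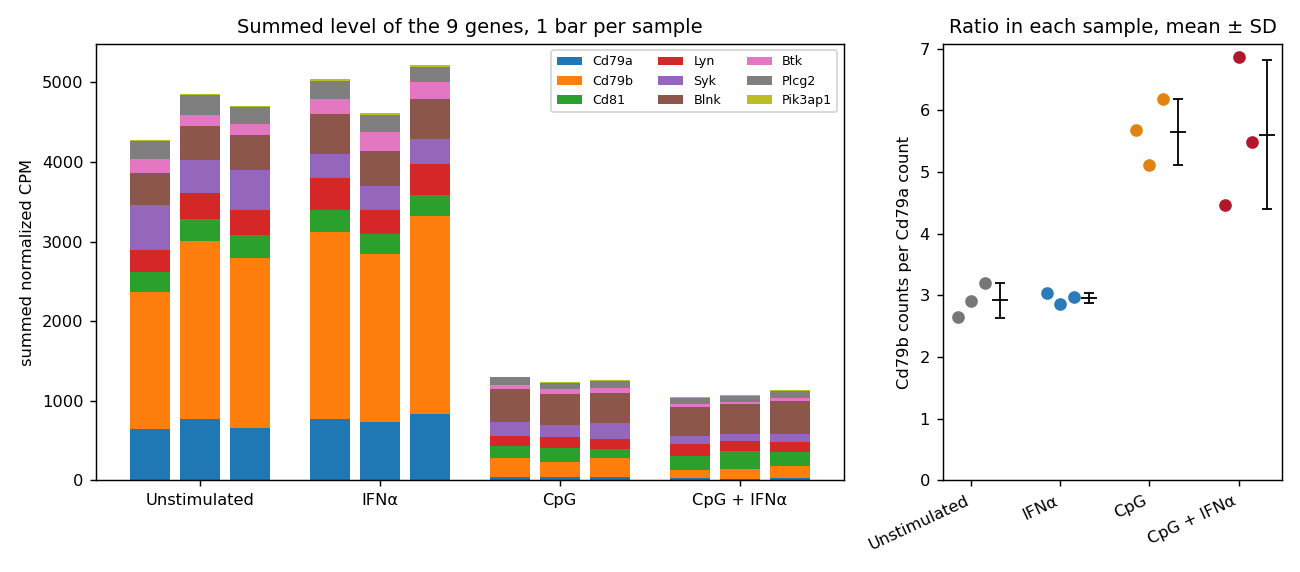
Left, summed normalized CPM of the 9 genes in each of the 12 samples, 1 stacked bar per sample with a color per gene. Right, Cd79b counts per Cd79a count in each sample (points) with the mean ± SD of 3; the summed level falls from 4613 to 1265 CPM with CpG while the ratio goes from 2.92 to 5.65.

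Summed over the 9 genes, the unstimulated level was 4613 ± 301 CPM (SD, n = 3) and that with IFNα 4963 ± 311. The sum was 1265 ± 37.2 for CpG alone and 1087 ± 41.0 for both stimuli. Cd79a and Cd79b together made up 58.9% of the unstimulated sum and 62.4% of that with IFNα, but 20.9% for CpG alone and 13.9% for both stimuli. The share of the adaptor Blnk went the other way. It was 9.06% of the sum in unstimulated cells, 30.9% with CpG and 35.3% with CpG + IFNα. The level of Blnk itself did not rise, with means of 417, 392 and 384 CPM in these groups, while the sum fell. With CpG, Blnk and not Cd79b was thus the most abundant transcript of the set.

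CD81 is a tetraspanin of the coreceptor complex that holds CD21. Cd81 lies at chr7:143052739-143067934 on the plus strand, and its exons overlap those of R74862 on the opposite strand, to which 43 counts were given over the 12 samples. Cd81 was at 254, 281 and 285 CPM in unstimulated samples, 276, 248 and 265 CPM with IFNα, 149.8, 178 and 117 CPM with CpG and 171, 226 and 174 CPM with CpG + IFNα. Every sample with CpG was below every sample without it, but the CpG and CpG + IFNα samples overlapped. Its fall with CpG was the smallest of the 7 that passed (log2 fold change -0.90, SE 0.14, edgeR adjusted p = 6.10e-07). CpG + IFNα was higher than CpG by 0.38 on the log2 scale (SE 0.13, edgeR adjusted p = 0.0547). This call was lost when counts were drawn down to the smallest total, where Cd81 had 0.27 (edgeR adjusted p = 0.290), and without CpG replicate 1, without CpG replicate 3 and without CpG + IFNα replicate 2, where the adjusted p was 0.112, 0.391 and 0.391.

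LYN and SYK are the first kinases of the pathway, and LYN also phosphorylates inhibitory receptors. Lyn lies at chr4:3678115-3813122 and Syk at chr13:52583173-52648792, both on the plus strand, and exons of Lyn overlap those of the lincRNA Gm26857 on the opposite strand. Lyn was at 267, 326 and 314 CPM in unstimulated samples and at 394, 302 and 392 CPM with IFNα, with overlap between the groups. It was at 136, 135 and 127 CPM with CpG and at 148, 129 and 125 CPM with CpG + IFNα, again with overlap. With CpG it fell by 1.19 on the log2 scale (SE 0.12, edgeR adjusted p = 4.79e-10). Between CpG + IFNα and CpG the difference was 0.01, with a 95% interval from -0.24 to 0.27, and between IFNα and unstimulated cells it was 0.26 (edgeR adjusted p = 0.138). The latter passed when IFNα replicate 2 was left out.

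Syk had 4 separate levels. It was at 574, 414 and 511 CPM in unstimulated samples, 301, 305 and 317 CPM with IFNα, 166, 154 and 204 CPM with CpG and 96.5, 94.2 and 108 CPM with CpG + IFNα. No sample of any group overlapped a sample of another. Syk was the only one of the 9 genes that fell with IFNα alone (log2 fold change -0.70, SE 0.12, edgeR adjusted p = 3.62e-05). It fell by 1.51 with CpG (SE 0.12, edgeR adjusted p = 1.43e-12) and by 0.82 more when IFNα was added to CpG (SE 0.13, edgeR adjusted p = 1.61e-05). The difference between the effect of IFNα with and without CpG was -0.12, with a 95% interval from -0.48 to 0.24.

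BLNK is the adaptor that SYK phosphorylates. Blnk lies at chr19:40928927-40994535 on the minus strand. Its promoter is printed because Blnk, unlike 7 of the other 8 genes, did not pass with CpG (chr19:40994172-40994471, minus strand, GRCm38.p6, written along the gene). The capitals mark the octamer ATTTGCAT, bound by OCT factors, at bases -130 to -123 from the RefSeq start.
Blnk: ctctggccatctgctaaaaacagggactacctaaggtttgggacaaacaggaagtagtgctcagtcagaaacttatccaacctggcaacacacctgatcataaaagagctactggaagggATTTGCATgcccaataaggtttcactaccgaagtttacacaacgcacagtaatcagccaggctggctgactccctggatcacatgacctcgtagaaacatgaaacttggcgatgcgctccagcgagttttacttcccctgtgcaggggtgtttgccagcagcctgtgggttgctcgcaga

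The octamer, searched on both strands, was in 1.74% of 32817 promoter windows of this length, and among the 8 windows given for 7 of the 9 genes it was found in that of Blnk alone. Blnk was at 399.5, 420.4 and 432 CPM in unstimulated samples, 504, 445 and 496 CPM with IFNα, 422, 381 and 372 CPM with CpG and 374, 369 and 408 CPM with CpG + IFNα. The 3 IFNα samples were above all others, and the rest overlapped. Against unstimulated cells the difference was -0.09 with CpG, with a 95% interval from -0.31 to 0.13, and -0.12 with CpG + IFNα, with an interval from -0.34 to 0.09. With IFNα alone it was 0.20 and did not pass (edgeR adjusted p = 0.198), although the groups did not overlap. That difference passed when IFNα replicate 2 was left out. CpG + IFNα was lower than IFNα in Blnk, by 0.33 (SE 0.10, edgeR adjusted p = 0.00596), a call that was lost without the filter on low counts, where the difference was -0.21. Under upper-quartile scaling, which moved the median of all genes by -0.11 with CpG and -0.13 with CpG + IFNα, Blnk also passed as lower than in unstimulated cells, at -0.20 and -0.25.

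BTK, the Tec family kinase whose loss causes agammaglobulinemia in humans, acts with PLCG2, which cleaves a membrane lipid into the messengers of the calcium and protein kinase C branches. Btk lies at chrX:134542336-134583570 on the minus strand and Plcg2 at chr8:117498291-117635142 on the plus strand. The promoter of Btk is printed with that of Pik3ap1, described below, because these genes rose with IFNα alone. The windows are chrX:134583091-134583390 for Btk and chr19:41385053-41385352 for Pik3ap1, both on the minus strand (GRCm38.p6) and written along the gene, with capitals for the PU.1 core GAGGAA, which in Btk is read on the other strand.
Btk: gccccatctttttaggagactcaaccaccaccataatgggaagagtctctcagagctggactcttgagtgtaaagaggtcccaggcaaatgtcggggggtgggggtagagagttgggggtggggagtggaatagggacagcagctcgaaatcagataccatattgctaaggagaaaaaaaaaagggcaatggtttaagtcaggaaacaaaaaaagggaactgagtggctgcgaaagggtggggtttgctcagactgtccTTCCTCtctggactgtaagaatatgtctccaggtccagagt
Pik3ap1: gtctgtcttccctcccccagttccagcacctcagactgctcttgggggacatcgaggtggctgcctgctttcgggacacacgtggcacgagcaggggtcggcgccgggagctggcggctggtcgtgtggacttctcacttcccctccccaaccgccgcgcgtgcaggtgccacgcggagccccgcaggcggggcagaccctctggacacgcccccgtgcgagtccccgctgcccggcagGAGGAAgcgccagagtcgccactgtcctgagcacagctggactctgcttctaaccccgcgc

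The match lay at bases 10 to 15 from the start in Btk and at -11 to -6 in Pik3ap1, and 28.3% of all promoter windows held this core on either strand. The interferon response element core GAAANNGAA, found in 8.55% of all windows, had no match in the 8 windows given for 7 of the 9 genes. In Cd81, the EBF1 core CCCNNGGG had 2 matches, at -219 to -212 and -68 to -61, and 13.7% of all windows held it. One of the 2 windows given for Syk held the PU.1 core at -9 to -4, and the window of Plcg2 held no match. A match is a run of letters and not a measured binding site.

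Btk was at 170.2, 139 and 141 CPM in unstimulated samples and 198, 239 and 214 CPM with IFNα. It was at 48.5, 61.3 and 62.9 CPM with CpG and 39.3, 29.0 and 42.7 CPM with CpG + IFNα. The 4 groups did not overlap, and IFNα moved Btk up without CpG and down with it. The log2 fold change was 0.54, SE 0.13 for IFNα alone (edgeR adjusted p = 0.00262), -1.38, SE 0.15 for CpG (edgeR adjusted p = 5.37e-10) and -0.67, SE 0.16 for IFNα added to CpG (edgeR adjusted p = 0.00392). The last call was lost when counts were drawn down to the smallest total, where Btk had -0.35 (edgeR adjusted p = 0.352).

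Plcg2 was at 228, 259.9 and 213 CPM in unstimulated samples, 222, 209 and 192 CPM with IFNα, 95.8, 77.7 and 83.9 CPM with CpG and 67.1, 72.5 and 80.7 CPM with CpG + IFNα. The samples fell into 2 levels, set by CpG, with overlap inside each. With CpG it fell by 1.44 on the log2 scale (SE 0.12, edgeR adjusted p = 5.17e-12). IFNα on top of CpG gave -0.23, with a 95% interval from -0.49 to 0.04, and IFNα alone gave -0.17 (edgeR adjusted p = 0.353).

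PIK3AP1 links the receptor to phosphatidylinositol 3-kinase and also acts downstream of Toll-like receptors. Pik3ap1 lies at chr19:41272377-41385102 on the minus strand and was the least abundant of the 9 genes in every group, with 11 to 52 counts per sample. It was at 13.7, 11.8 and 13.2 CPM in unstimulated samples, 29.3, 26.1 and 27.5 CPM with IFNα, 9.21, 10.7 and 10.98 CPM with CpG and 19.6, 17.9 and 13.9 CPM with CpG + IFNα. The groups did not overlap, with IFNα highest and CpG lowest. IFNα alone raised it 2.12-fold (log2 fold change 1.08, SE 0.26, edgeR adjusted p = 0.00203), and IFNα added to CpG raised it by 0.73 on the log2 scale (SE 0.24, edgeR adjusted p = 0.0453). The second call was lost in 6 of 22 alternative settings, 4 of which leave out 1 sample. Against unstimulated cells the difference was -0.32 with CpG, with a 95% interval from -0.92 to 0.27, and 0.41 with CpG + IFNα, with an interval from -0.12 to 0.93. At these counts the intervals are the widest of the 9 genes.

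**Figure D3:**
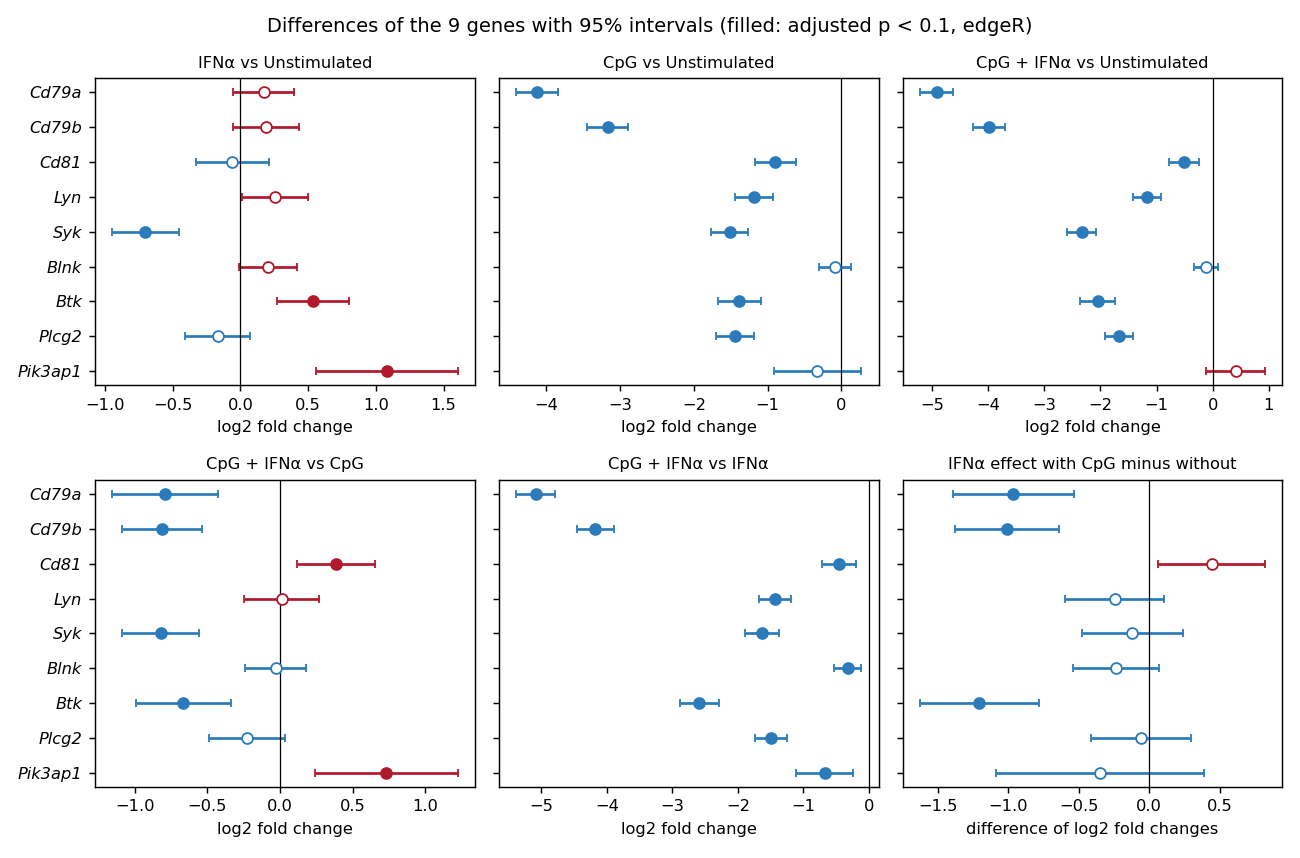
Difference of each of the 9 genes (rows) in the 6 comparisons, as log2 fold change with its 95% interval; filled points passed at an adjusted p under 0.1 in edgeR's test, red is higher and blue lower. Filled points lie left of 0 in all 9 rows of CpG + IFNα against IFNα, while IFNα against unstimulated cells has 3 filled points on both sides of 0.

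Whether IFNα acted differently with and without CpG was tested as an interaction, in which the IFNα effect without CpG is subtracted from the one in its presence. It passed below 0 for 3 of the 9 genes, Cd79a, Cd79b and Btk, and above 0 for 0, where 7.58% of all genes passed in this direction and 5.84% in the other. For Btk the difference was -1.20, SE 0.21 (edgeR adjusted p = 1.38e-04), and IFNα raised it without CpG and lowered it with CpG. Cd79b had -1.005, SE 0.18 (edgeR adjusted p = 2.56e-04) and Cd79a -0.96, SE 0.21 (edgeR adjusted p = 0.00231), where the effect of IFNα alone did not pass. For Cd81 the difference was 0.44, SE 0.19 and did not pass (edgeR adjusted p = 0.141), but it passed with upper-quartile factors, with library sizes only, without mitochondrial and ribosomal RNA genes, with the replicate block and without CpG replicate 2. The other 5 genes, of which 0 passed, had values from -0.35 for Pik3ap1 to -0.06 for Plcg2.

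The rest of the pathway was described with 91 other genes listed by role, of which 87 were tested. With CpG, 66 of the 87 were lower and 10 higher than in unstimulated cells, with a median of -1.14 on the log2 scale. With IFNα alone, 21 were lower and 8 higher (median -0.13), and with IFNα added to CpG 25 were lower and 3 higher (median -0.22). Of all genes, 38.4% were lower and 36.5% higher with CpG. The shares were 11.9% and 12.4% with IFNα alone, and 8.83% and 6.54% with IFNα added to CpG. In each of these comparisons the count of higher genes among the 87 did not exceed the share over all genes. The medians over all genes given above apply here as well.

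**Figure D4:**
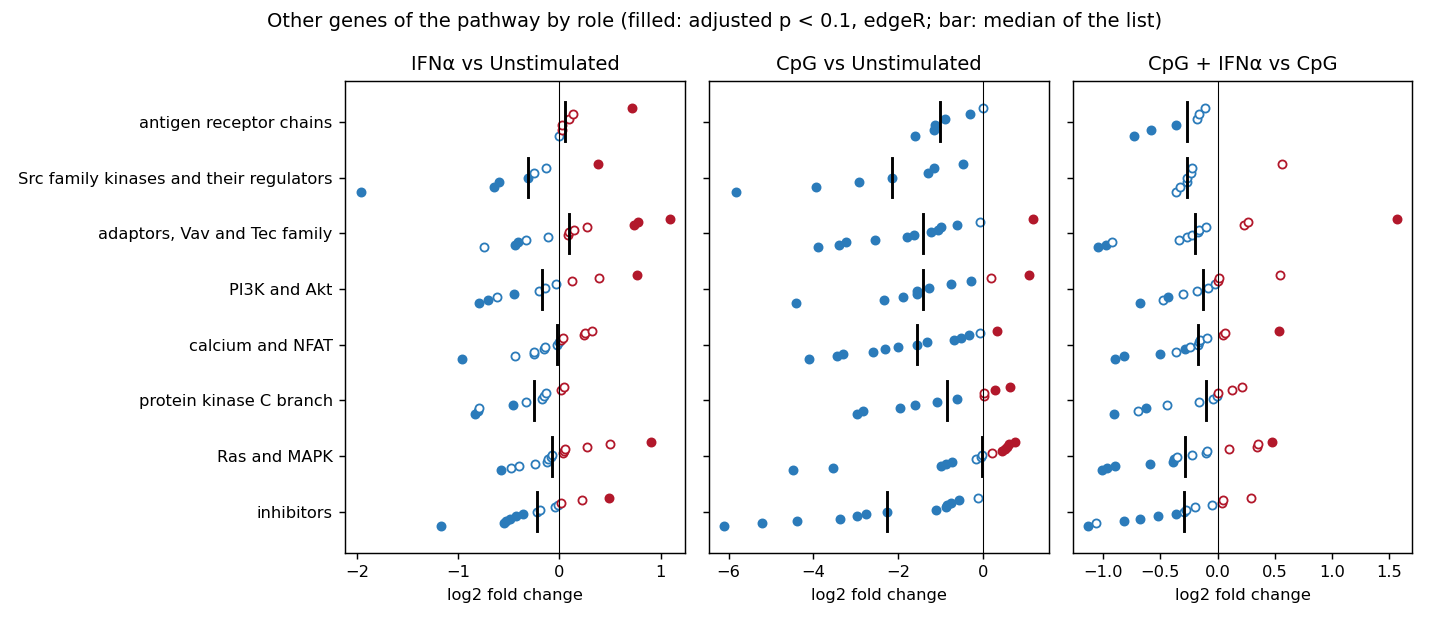
Log2 fold change (horizontal axis, its range set for each panel) of the tested genes of the pathway in 8 roles (rows) for IFNα against unstimulated cells, CpG against unstimulated cells and CpG + IFNα against CpG. Filled points passed at an adjusted p under 0.1 in edgeR's test and the black bar is the median of the list; the coreceptor is not plotted, and with CpG the medians of the plotted roles lie from -2.26 for the inhibitors to -0.03 for Ras and MAPK.

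Among the antigen receptor chains, 5 of 6 genes were lower with CpG. Ighm, the mu heavy chain of the FO B cell receptor, had -0.88 on the log2 scale, Ighd, the delta heavy chain, -1.603 and the kappa constant gene Igkc -1.14. Of the lambda genes, Iglc2 had -1.12 and Iglc3 -0.30, which passed, although these are close copies whose reads could be split between them, and Iglc1 had 0.00, which did not pass. With IFNα alone Iglc1 was the 1 chain that was higher, at 0.72, and with IFNα added to CpG 3 chains were lower, including Iglc2 at -0.73 and Iglc1 at -0.58. Counts of Ighm do not separate its membrane form from the secreted form. Of the coreceptor, Cr2 fell with CpG, at -3.61, with IFNα alone, at -2.38, and when IFNα was added to CpG, at -1.28. CD21, the product of Cr2, was a marker of the sort.

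With CpG, all 7 Src family kinases and regulators of the first kinase step were lower (median -2.14), including Blk, a B cell Src kinase, at -3.93, and Ptprc, the phosphatase CD45 that primes these kinases, at -2.14. Of the 13 inhibitors, 12 were lower (median -2.26), with the lectin receptor Siglecg at -6.10 and the adaptor Dok3 at -5.21. Of the 12 adaptors and Vav and Tec family genes, 10 were lower (median -1.42), such as Themis2 at -3.88 and the scaffold Bank1 at -2.54, and 1 was higher, the adaptor Nck2 at 1.19.

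Downstream branches were mixed to different degrees, and the difference between branches was not tested. For PI3K and Akt, 8 of 10 genes were lower with CpG (median -1.41), including the regulatory subunit Pik3r1 at -1.89 and the transcription factor Foxo1 at -1.55, while Akt1 was higher at 1.101. For calcium and NFAT, 11 of 13 were lower (median -1.56), including the calcium channel Itpr3 at -3.43 and Nfatc1 at -2.32, and the calcineurin subunit Ppp3cb was higher at 0.34. Of 10 genes of the protein kinase C branch, 6 were lower (median -0.85), such as the paracaspase Malt1 at -2.83, and 2 were higher, the kinases Map3k7 at 0.64 and Prkcb at 0.29. Ras and MAPK had 5 lower and 5 higher of 14 (median -0.03), near the 38.4% lower and 36.5% higher of all genes. The exchange factors Rasgrp2 at -4.48 and Rasgrp1 at -3.54 stood against Hras at 0.76 and Map2k2 at 0.61.

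With IFNα alone, 4 of the 7 Src family genes and regulators were lower, including Fgr at -1.97 and Blk at -0.60, and 1 was higher. Of the 12 adaptors, 3 were higher, among them Sh3bp2 at 1.09 and the Tec kinase Tec at 0.78, and 2 were lower, Grb2 at -0.44 and Bank1 at -0.41. Among the inhibitors 6 of 13 were lower, with the receptor Pirb at -1.17, and the phosphatase Ptpn22 was higher at 0.49. In the other roles, Foxo1 at -0.70, Itpr3 at -0.97, Malt1 at -0.84 and Rasgrp1 at -0.58 were lower, and the Ras activator Sos1 at 0.91 was higher.

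When IFNα was added to CpG, 0 of the 7 Src family genes passed. Lower genes in the other roles included Bank1 at -1.05 and Sh3kbp1 at -0.97 among the adaptors, the PI3K subunit Pik3cd at -0.68, the calcium sensor Stim1 at -0.82 and the kinase Mapk3 at -1.01. Among the inhibitors 5 of 13 were lower, including the phosphatases Ptpn6 at -0.68 and Inpp5d at -0.82. The 3 genes that were higher were Sh3bp2 at 1.57, the calcium channel Itpr1 at 0.54 and the kinase Map2k1 at 0.48. In the interaction 6 of the 87 genes were lower and 3 higher, beside 7.58% lower and 5.84% higher of all genes. These counts did not exceed those shares. Mapk3 at -1.05 and Iglc2 at -0.86 were among the lower, and Cr2 at 1.09 and Foxo1 at 0.71 among the higher.

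Over the 12 samples, the patterns of the 9 genes were compared by Pearson's r of log2(CPM + 1). The points share the 4 groups, so that r mainly follows the group means, and it is given as a description. The most alike pair was Cd79a and Cd79b at r = 0.997, followed by Cd79a and Plcg2 at 0.985, and the least alike was Syk and Pik3ap1 at 0.075. Among all genes tested, the most like Cd79a was Rassf2 at 0.998, which went from 161 CPM in unstimulated cells to 22.0 with CpG and 13.0 with CpG + IFNα, and Rassf2 was also the most like Cd79b. The nearest to Syk was Scd1 (0.991), to Lyn Smap2 (0.994), to Plcg2 Tgfbr2 (0.992) and to Btk Gpx4-ps2 and H2az2 (both 0.987). Cd81 was nearest to Srgn (0.950) and Blnk to Hscb (0.971).

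Pik3ap1 was most like Gvin1 at r = 0.971 and Ifit2 at 0.969, both known as interferon-inducible genes. Ifit2 had 9.84 CPM in unstimulated cells and 726 with IFNα. Its CpG level was 2.78 CPM, and both stimuli gave 66.2 CPM. Gvin1 had 7.43, 58.1, 2.40 and 11.04 CPM in these groups. As for Pik3ap1, IFNα was highest, CpG lowest and CpG + IFNα second in both.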

How the data were processed

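RNA of 12 samples of sorted splenic FO B cells, in 4 groups of 3 by the titles in the labels, was prepared by BRB-seq, in which an oligo-dT primer gives each sample a barcode and each molecule a UMI. The table the authors deposited holds UMI counts for each gene, which were not normalized. By their methods and processing notes, they used UMI-tools 1.1.2, Trim Galore 0.6.7, HISAT2 2.2.1 on GRCm38 and featureCounts 2.0.1, and extended the reference of 1 gene that is not among those described. Whether counting used the strand is not given in the sources used here. All 22561 gene identifiers are in GENCODE M21, which gave positions. Totals were between 922450 and 2923865 counts per sample. UMIs remove PCR duplicates, and the spread between replicates rather than counting error sets most intervals.

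The counts were analysed in R 4.3.3 with edgeR 4.0.16, which scaled samples by TMM, kept 9431 genes with filterByExpr by group, and fitted all 12 samples in a single quasi-likelihood model of the 4 groups with 8 residual degrees of freedom. Each stimulus was compared with unstimulated cells, CpG + IFNα with CpG and with IFNα, and the interaction was tested. Genes passed at a Benjamini-Hochberg adjusted p under 0.1. The test was checked on simulated counts with known changes. Alternatives were DESeq2 1.42.0, other scalings, filters, thresholds and depths, a replicate block, and the removal of single samples.

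The 9 genes, the pathway lists and the marker lists were chosen with earlier results of these data known. All 9 are named in every comparison. Of each pathway list, at most 2 higher and 2 lower genes are named, those that passed with the lowest p-values, along with all antigen receptor chains where the list is given, and for each of the 9 genes the 1 or 2 genes of highest r. Some results that fall under this rule are not reported here. Promoter windows were those of RefSeq on GRCm38.p6, with 8 windows for 7 of the 9 genes, and Cd79b and Lyn had no window.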

Additional observations from a re-analysis of the deposited data

Results flagged for a closer look

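The effect of IFNα differed with and without CpG in 3 of the 9 genes by a test of the difference itself. The effect with CpG minus the effect without was -1.20 on the log2 scale for Btk, -1.005 for Cd79b and -0.96 for Cd79a. Each passed in edgeR's test at an adjusted p under 0.1, and 7.58% of all genes tested passed in this direction. Groups of 3 samples are too small for the test of single samples that stand apart.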

How the results depend on the processing

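Of 35 differences of the 9 genes that passed, 31 passed in every other scaling, filter, tool, depth, block and left-out sample that was run, and 0 changed direction. At an adjusted p under 0.05, 34 passed, and with a fold over 2 required, 21. The 4 calls outside the 31 were Cd81, Pik3ap1 and Btk for IFNα added to CpG, and Blnk for CpG + IFNα against IFNα without the filter, at -0.21. Pik3ap1, at 11 to 52 counts per sample, has the widest intervals.

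For IFNα added to CpG, the count of higher genes was 2. It was 1 with DESeq2, 0 after counts were drawn down to the smallest total, 1 at an adjusted p under 0.05 and 0 with a fold over 2 also required, and it ran from 0 to 2 when 1 sample was left out. The count of lower genes, 4, was 0 with a fold over 2 required. With IFNα alone, 2 were higher, 1 with a fold over 2 required, and 2 to 4 when 1 sample was left out. Without IFNα replicate 2 it was 4, with Lyn and Blnk added. The 1 lower gene, Syk, was 0 with that fold. Higher with CpG + IFNα than in unstimulated cells were 0 genes, and 0 to 1 when 1 sample was left out, the 1 being Pik3ap1 at 0.55 without CpG + IFNα replicate 3. In the interaction, 0 genes were higher, and 1, Cd81, with upper-quartile factors, with library sizes only, without mitochondrial and ribosomal RNA genes, and with the replicate block, where it had 0.44. The range when 1 sample was left out was 0 to 1. The replicate block changed no other call of the 9 genes. The labels do not say that equal replicate numbers share a mouse, although the barcode list names samples with the same numbers in each group. The deviations of same-numbered samples of different groups from their group means had r from -0.065 to 0.201, over 0.1 in 5 of 18 pairs. Those of differently numbered samples had r from -0.200 to 0.054. These values do not settle whether equal numbers are pairs, and the main fit did not pair samples by number. The cause of these changes was not tested, except that a fold limit admits fewer genes.

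Differences that had not passed changed sign in some settings. Lyn between CpG + IFNα and CpG went from 0.011 to -0.012 with upper-quartile factors and ran from -0.061 to 0.055 when 1 sample was left out. Blnk there went from -0.030 to 0.032 without the filter and 0.004 without mitochondrial and ribosomal RNA genes, and ran from -0.077 to 0.025 when 1 sample was left out. In the interaction, Plcg2 went from -0.058 to 0.019 with library sizes only and 0.013 without mitochondrial and ribosomal RNA genes, and ran from -0.145 to 0.078 when 1 sample was left out, where Syk ran from -0.235 to 0.007.

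Upper-quartile factors moved the median of all genes by -0.11 for CpG and -0.13 for CpG + IFNα against unstimulated cells. With IFNα alone, the split of all genes between higher and lower was 1173 to 1122, against 924 to 1483 with library sizes only and 973 to 1432 with upper-quartile factors. In the interaction it was 551 to 715, against 658 to 530 with library sizes only. Without mitochondrial and ribosomal RNA genes it was 667 to 545. For IFNα added to CpG, 833 of all genes were lower, against 451 with DESeq2, 526 at the smallest depth, 528 without a filter (with 721 higher against 617), 502 without CpG + IFNα replicate 2 and 522 without CpG replicate 3. In the interaction, 715 were lower, against 373 with DESeq2, 475 at the smallest depth, 454 without a filter, 460 at an adjusted p under 0.05 and 414 without unstimulated replicate 3. With a fold over 2 required, the higher and lower genes were 430 and 384 for IFNα alone, 1898 and 2405 for CpG (3444 and 3618 without this limit), 1916 and 2413 for CpG + IFNα against unstimulated cells (3545 and 3659), 1767 and 2408 against IFNα (3409 and 3749), 278 and 190 against CpG, and 291 and 299 in the interaction.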
